A study of Mus musculus with 10 samples.

Results

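Nuclear oxidative phosphorylation genes were followed in endothelial cells of mouse ear skin that did or did not express oncogenic Pik3caH1047R. The set held the 97 protein-coding genes whose symbols begin with Nduf, Sdh, Uqcr, Cox4, Cox5, Cox6, Cox7, Cox8 or Atp5, out of 46517 Ensembl genes in the count tables; 11 further genes with such symbols were pseudogenes and were left out. By role, the members were 7 core subunits, 29 accessory subunits and 8 assembly factors of complex I, 4 subunits and 4 assembly factors of complex II, 8 subunits of complex III, 11 of complex IV and 17 of complex V, the supercomplex factor Cox7a2l, and 8 isoforms of complex IV subunits known for use in restricted tissues or conditions. The members were picked by symbol alone, although the symbol rule was set with earlier results of these data known.

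Complexes I to IV pass electrons from NADH and succinate to oxygen in the inner mitochondrial membrane and build up a proton gradient, which complex V uses to make ATP. Mitochondrial DNA encodes a small number of the subunits, and the nuclear genome encodes the rest, together with the assembly factors that put the complexes together. Endothelial cells are known to draw much of their ATP from glycolysis, while the respiratory chain serves their growth, and PI3K signalling is a known regulator of cell metabolism.

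Cells were sorted from ear skin by Podoplanin and CD31, with CD45, CD11b and Ter119 positive and dead cells gated out, and single-cell Smart-Seq2 libraries, which read whole transcripts, were made in 384-well plates. Mutant mice (5) were Cre+ Pik3caH1047R;Cdh5-CreERT2 animals that received 4-OHT, the active tamoxifen metabolite, on the ears at 3 weeks and were analysed at 5 weeks of age. The Cdh5 promoter drives Cre in all endothelium, lymphatic and blood alike, and the mutant kinase is expressed from Rosa26 as the chicken PIK3CA sequence, whose reads are not part of the tables used here. The 2 control mice differed from each other: control 1 was an untreated C57BL/6J mouse, and control 2 was a Cre- Pik3caH1047R;Cdh5-CreERT2 mouse given 4-OHT. Per the study's methods, the mice were kept on a C57BL/6J background. A further Cre- control mouse was not analysed here. Mutants 3 and 5 filled 2 plates each, and the other mice 1 plate each. The plate names formed 2 numbering series, with mutants 1 to 4 in series A and mutant 5 and both controls in series B, so that plate series and genotype cannot be told apart outside mutant 5.

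Of 3456 wells, 3248 passed the filters (2524 mutant, 724 control), with a median of 300448 reads per mutant cell and 286372 per control cell; no well name was shared between plates. Sums per mouse held 55616045 to 194353210 reads in LECs, 4098711 to 94444356 in Ptx3 LECs and 39610940 to 102714572 in BECs. Lymphatic endothelial cells (LECs) were cells with at least 300 CPM (read counts per library total, on the usual scale) of Prox1, Flt4 and Mmrn1 together and more of these than of Flt1, Emcn and Podxl, and blood endothelial cells (BECs) were cells in which the latter sum was larger. LECs numbered 183 and 175 in controls 1 and 2 and 184, 187, 363, 182 and 367 in mutants 1 to 5, and BECs 163 and 164 against 187, 184, 340, 187 and 317. Ptx3 LECs, a capillary subset defined here by at least 100 CPM of Ptx3, numbered 12 and 44 in the controls and 62, 62, 126, 76 and 162 in the mutants. They are part of the LEC sums, and the mutant against control comparisons in the 3 classes share their mice. Beside the markers of the rule, all 6 further LEC markers listed were higher in LECs, and 5 of 6 further BEC markers higher in BECs, in 7 of 7 mice. Lyve1 stood at 1228 to 2562 CPM over the mice in LECs and 25.2 to 137 CPM in BECs, Pdpn at 486 to 760.0 against 8.52 to 57.2 CPM, and Plvap at 2012 to 3919 CPM in BECs and 468 to 833 CPM in LECs. The exception, Kdr, was higher in BECs in 1 of 7 mice, with 517 to 779 CPM in LECs and 331 to 622 CPM in BECs. Cd34, another BEC marker, stood at 70.2 and 29.4 CPM in control LECs and at a mean of 455 CPM in mutant LECs.

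Several properties of the libraries moved with genotype and touch every mutant against control value below; their part in those values was not tested, except where a value without such cells is given. Cycling cells, with reads of at least 3 of 7 proliferation genes, made up 6.01 and 7.43% of LECs in controls 1 and 2 and 22.0 to 78.3% in the mutants, and 4.91 and 3.05% and 15.0 to 51.3% of BECs. Any read of a gene counted, and this share did not follow the summed level of these genes. In LECs, mutants 5 and 4 had 74.7 and 22.0% such cells at 459 and 457 CPM. The share is thus not a measure of the fraction of dividing cells. Cells with over 200 CPM of another cell type's markers made up 57.4 and 32.6% of control LECs and 13.9 to 22.9% of mutant LECs, and 83.4 and 47.0% and 8.70 to 34.2% of BECs. The summed level of 6 fibroblast genes was 455 and 243 CPM in control LECs against 26.9 to 127 CPM in mutant LECs, and that of 6 mural genes 658 and 364 CPM in control BECs against 33.9 to 362 CPM in mutant BECs. In these sums over many cells, fewer cells with a transcript and less of it per cell cannot be told apart. Without cycling cells no member was called in LECs or BECs against controls (0.287 and 0.976% of all genes were). The median log2 fold changes given below were then -0.40 in LECs, -0.40 in Ptx3 LECs and -0.65 in BECs. Without cells holding other types' markers they were -0.38, -0.46 and -0.68.

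Promoter sequence was looked at first, because nuclear respiratory chain genes are known targets of the factors NRF1, GABPA (of the ETS family) and YY1. RefSeq promoter windows of GRCm38.p6, from 250 bases before to 50 bases after the gene start, were found for 80 of the 97 members. The NRF1 motif, GCGCA directly followed by TGCGC, which reads the same on both strands, lay in 7 of them (8.75%), against 1.47% of the 17491 protein-coding genes with a window. The ETS motif CCGGAAG, searched on both strands, lay in 21 (26.2% against 12.9%), and the YY1 motif AAGATGGC in 11 (13.8% against 3.57%). The NRF1 windows belonged to Ndufaf4, Ndufaf5, Ndufa11, Uqcrc1, Cox6a1, Atp5g2 and Atp5k. The shares describe letters in a window, and where the ETS and YY1 motifs run together they can share the letters AAG.

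The 250 bases before the start are shown, 5′ to 3′ with motif letters in capitals, for 4 members on which results below turn. Cox6a1 (chr5:115348959-115349208 on the minus strand) and Atp5j (chr16:84834977-84835226 on the minus strand), a subunit of complex IV and a stalk subunit of complex V, held motifs, the latter in the window of 1 of its 2 listed starts. In BECs every mutant lay below both controls for Atp5j, and below control 2 but not always below control 1 for Cox6a1. Neither difference passed the test used below. Atp5b (chr10:128083057-128083306 on the plus strand), the catalytic beta subunit of complex V, and Ndufa8 (chr2:36049339-36049588 on the minus strand), a complex I accessory subunit, held no exact copy of the 3 motifs in these bases and differed between LECs and BECs. Near matches were not searched, and the last bases shown for Ndufa8 differ from the NRF1 motif only in its first letter. A link between motifs and these differences was not tested.
Cox6a1: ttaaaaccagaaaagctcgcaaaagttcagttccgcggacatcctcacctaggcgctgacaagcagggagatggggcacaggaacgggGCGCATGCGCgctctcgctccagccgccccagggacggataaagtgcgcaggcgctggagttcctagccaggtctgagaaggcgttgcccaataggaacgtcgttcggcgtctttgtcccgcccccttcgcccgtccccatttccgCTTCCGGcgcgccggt
Atp5j: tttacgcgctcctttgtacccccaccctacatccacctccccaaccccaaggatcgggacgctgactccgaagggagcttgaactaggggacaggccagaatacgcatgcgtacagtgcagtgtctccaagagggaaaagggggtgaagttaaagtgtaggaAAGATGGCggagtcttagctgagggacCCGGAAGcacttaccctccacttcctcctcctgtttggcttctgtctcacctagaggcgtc
Atp5b: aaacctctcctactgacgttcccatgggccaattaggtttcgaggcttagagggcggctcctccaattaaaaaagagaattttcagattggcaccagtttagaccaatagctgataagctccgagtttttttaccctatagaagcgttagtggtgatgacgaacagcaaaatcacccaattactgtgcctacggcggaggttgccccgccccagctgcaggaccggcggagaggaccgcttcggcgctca
Ndufa8: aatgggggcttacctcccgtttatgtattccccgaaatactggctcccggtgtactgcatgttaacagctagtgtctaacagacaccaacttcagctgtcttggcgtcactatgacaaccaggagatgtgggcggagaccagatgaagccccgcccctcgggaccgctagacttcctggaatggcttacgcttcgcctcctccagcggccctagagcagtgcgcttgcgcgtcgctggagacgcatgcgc

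As a whole, the 97 genes took between 1.01 and 1.94% of the reads of a mouse's cells, and in LECs the 2 controls were the lowest and the highest of the 7 mice. In LECs, the share was 1.16% in control 1 and 1.92% in control 2, and 1.23, 1.18, 1.21, 1.34 and 1.43% in mutants 1 to 5 (1.28 ± 0.105%, SD, n = 5). In Ptx3 LECs, it was 1.14 and 1.94% in the controls and 1.28, 1.28, 1.28, 1.41 and 1.48% in the mutants. In BECs, it was 1.20 and 1.83% in the controls and 1.08, 1.12, 1.09, 1.01 and 1.38% in the mutants (1.13 ± 0.145%). In LECs and Ptx3 LECs every mutant lay between the controls, and in BECs 4 of the 5 mutants lay below both. Control 2 was the highest mouse in each class.

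The mutant mean minus the control mean was -0.264 percentage points in LECs, -0.192 in Ptx3 LECs and -0.379 in BECs, in each class less than the distance between the controls. Without control 1 the differences were -0.647, -0.594 and -0.694 points, and without control 2 they were 0.119, 0.210 and -0.0637 points. Plates of 1 mouse also differed: the LEC share was 1.31 and 1.09% on the plates of mutant 3 and 1.47 and 1.4% on those of mutant 5, and the BEC share 1.23 and 0.893% on those of mutant 3. Reads on mitochondrially encoded subunits took 0.764 and 0.943% of control LEC reads and 0.614 to 0.740% of mutant LEC reads. Reads on cytosolic ribosomal protein genes took 2.1 and 3.06% and 1.39 to 1.77%.

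**Figure D1:**
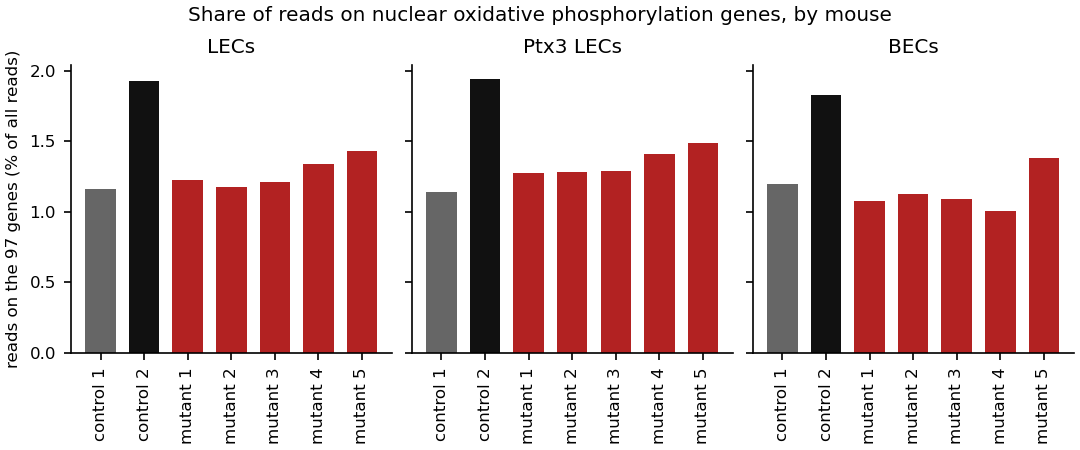
Percent of all reads that fell on the 97 genes (vertical axis), 1 bar per mouse, in LECs, Ptx3 LECs and BECs; bars for the 2 controls stand beside those for mutants 1 to 5. Control 2 has the tallest bar in each class, at 1.92, 1.94 and 1.83%, and control 1 stands at 1.16, 1.14 and 1.20%.

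Per kilobase of the main transcript, complex IV and complex V subunits led the levels. In control LECs, Cox4i1 stood highest with 999 CPM per kb, ahead of Cox6a1 with 710.1, Atp5b with 583 and Cox8a with 486. In control BECs the order was Cox4i1 (911 CPM per kb), Cox6a1 (785), Atp5j (548) and Cox8a (543). The order depends on the length used: per kb of all exons, control BECs had 639 CPM for Cox6a1, 548 for Cox8a, 545 for Cox6b1, 449 for Cox4i1 and 142 for Atp5j. These are means over 2 controls that differed from each other, so neighbours in the order are not separated by the spread: Cox8a stood at 169 and 366 CPM in LECs of controls 1 and 2, before scaling by length.

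The question for each cell class was whether Pik3caH1047R expression went with a different level of these genes. In LECs, 94 of the 97 members had enough reads to be tested; Cox7b2 and Cox6a2 had no read, and Cox8c had 13 reads, all in mutants. No member passed edgeR's quasi-likelihood test at a Benjamini-Hochberg adjusted p under 0.05 over all genes, where 2.76% of all 19758 tested genes did. At an unadjusted p under 0.05, 8 members were higher and 14 lower in mutants, together 22 of 94, against 20.1% of all genes. DESeq2 on the same sums called 4 members higher and 6 lower, against 12.5% of all genes. The median log2 fold change of the members, mutant over control, was -0.37, with 26 above 0 and 68 below, against a median of -0.0073 over all genes, of which 49.6% were above 0.

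The roles differed in that median, and complex IV and complex I accessory subunits lay lowest. Complex IV, which hands electrons to oxygen, had a median of -0.83 with 1 of 11 above 0, and the accessory subunits of complex I, which surround its catalytic core, had -0.54 with 2 of 29 above 0. Complex III had -0.53 and complex V -0.24. The medians were 0.073 for the core subunits of complex I, 0.0084 for complex II, which also belongs to the TCA cycle, -0.039 for complex I assembly factors and 0.045 for those of complex II. In the catalytic core of complex I, which oxidises NADH and reduces ubiquinone, 4 of 7 members lay above 0. Without control 1 the median over all members was -0.76, and without control 2 it was 0.25, so that 1 control library decided its direction. Without mutant 5, 1 member, Atp5a1, was called higher (2.85% of all genes in either direction), and with mutant 5 alone against both controls of its plate series the median was -0.095.

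Among members that lay higher in mutant LECs, Atp5a1, the alpha subunit of the catalytic head of complex V, had the smallest adjusted p. Atp5a1 stood at 640.2 and 584 CPM in controls 1 and 2 and at 935, 972, 935, 860.3 and 785 CPM in mutants 1 to 5. Every mutant lay above both controls. The fitted difference was a log2 fold change of 0.55 ± 0.12 (SE), edgeR adjusted p = 0.0513, just short of the threshold. DESeq2 gave an adjusted p of 0.00705, and the adjusted p ranged from 0.00705 to 0.933 over the alternative settings. With mutant 5 alone against the controls of its plate series the log2 fold change was 0.37. Its partner in the head, the beta subunit Atp5b, stood at 1187 and 1046 CPM in the controls and 1179 to 1495 CPM in the mutants, with a log2 fold change of 0.30 ± 0.12 and an edgeR adjusted p of 0.213, and its groups overlapped.

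The core of complex I held members in both directions. Ndufs1, the largest core subunit, stood at 76.9 and 80.6 CPM against 94.5 to 151 CPM, without overlap (log2 fold change of 0.55 ± 0.22, edgeR adjusted p = 0.216). In the opposite direction, Ndufs7 stood at 205 and 247 CPM in controls 1 and 2 and at 153, 128, 145, 139 and 181 CPM in mutants 1 to 5. Ndufs7 carries the iron-sulfur cluster next to ubiquinone, all mutants lay below both controls, and the fit gave a log2 fold change of -0.60 ± 0.16 (SE), edgeR adjusted p = 0.0899. With mutant 5 alone within its plate series the log2 fold change of Ndufs7 was -0.30.

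Cox7a2l, a factor that joins complexes III and IV in supercomplexes, was lower in every mutant than in either control. Cox7a2l stood at 334 and 288 CPM in controls 1 and 2 and at 228, 199, 212, 230.1 and 229 CPM in mutants 1 to 5. The fit gave a log2 fold change of -0.50 ± 0.12 (SE), edgeR adjusted p = 0.0708, and -0.43 with mutant 5 alone in its plate series. A near-identical transcript of Cox7a2l exists elsewhere in the annotation, which the counting could have split. The accessory subunit Ndufa6 stood at 85.5 and 186 CPM in the controls and 52.4, 51.6, 61.4, 77.9 and 79.0 CPM in the mutants, with every mutant lower than control 1 and control 2 far above it (-1.08 ± 0.30, edgeR adjusted p = 0.0961). Uqcrh, the hinge subunit of complex III that docks cytochrome c, stood at 147 and 288 CPM against 87.7 to 149.5 CPM, with overlap (-0.89 ± 0.29, edgeR adjusted p = 0.136).

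Complex IV showed how strongly these values rested on control 2. Cox4i1, the ubiquitous form of its regulatory subunit 4, stood at 605 and 923 CPM in controls 1 and 2 and at 495, 492, 529, 565 and 642 CPM in the mutants, so that mutant 5 exceeded control 1. Cox8a, a small structural subunit, stood at 169 and 366 CPM in the controls and 123, 112, 133, 169 and 192 CPM in the mutants, which reached up to and past control 1 but stayed far under control 2. The log2 fold changes were -0.49 ± 0.18 (edgeR adjusted p = 0.176) and -0.88 ± 0.30 (edgeR adjusted p = 0.162). Leaving out control 2 moved them to -0.15 and -0.21, and leaving out control 1 to -0.74 and -1.31.

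**Figure D2:**
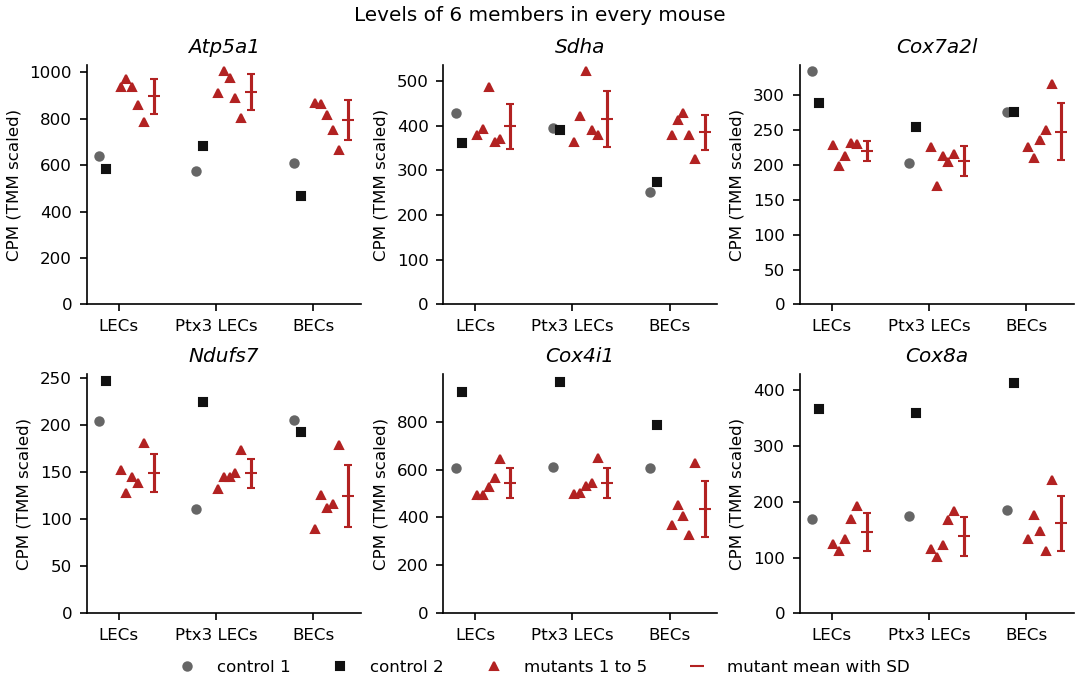
Level in CPM, linear axis from 0, of Atp5a1, Sdha, Cox7a2l, Ndufs7, Cox4i1 and Cox8a in LECs, Ptx3 LECs and BECs; each symbol is a mouse, with both controls and mutants 1 to 5 marked apart, and the bar gives the mutant mean with its SD. For Atp5a1 all mutants lie above both controls in the 3 classes, while for Cox8a the LEC controls lie apart at 169 and 366 CPM.

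Groups also did not overlap for members of other roles. Ndufaf5, which modifies Ndufs7 during assembly of complex I, stood at 10.1 and 15.7 CPM in the controls and 19.6 to 32.8 CPM in the mutants (0.96 ± 0.32, edgeR adjusted p = 0.149), and Ndufaf6, another factor for the same complex, at 4.17 and 5.81 against 6.56 to 18.3 CPM (1.34 ± 0.46, edgeR adjusted p = 0.156). Ndufa9, an accessory subunit next to the quinone site, stood at 131 and 137 against 158 to 189 CPM (0.38 ± 0.13, edgeR adjusted p = 0.169). In all, 10 members had every mutant above both controls and 4 every mutant below both, where 13.8% and 11.7% of all genes did. Of the 94 members these are shares no larger than the background. Beside those named, the higher group included Atp5f1, Uqcrc2, Sdhaf2 and Cox7a1, and the lower group Cox4i2.

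The controls disagreed over most members. Control 2 was the highest of the 7 mice in 60 of 94 members in LECs (21.3% of all genes), 59 in Ptx3 LECs (20%) and 65 in BECs (21%). By role it was highest in 24 of 29 complex I accessory subunits and 10 of 11 complex IV subunits in LECs, but in 3 of 7 core subunits of complex I and 1 of 4 complex II subunits. The members that lay lower in mutants were mostly short. Of 20 members whose main transcript is under 600 bases, 2 were above 0 in LECs, with a median log2 fold change of -0.62. Of 42 between 600 and 1200 bases, 6 were, with a median of -0.51, and of 32 of 1200 bases or more, 18 were, with a median of 0.044.

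All tested genes showed the same order over a smaller range, at medians of -0.41, -0.19 and 0.043 in these 3 length classes. Across the 94 members, Spearman's rho of length with the log2 fold change was 0.53 in LECs, 0.47 in Ptx3 LECs and 0.51 in BECs, where all genes gave 0.09, 0.03 and 0.07. The points are genes of the same 7 libraries and not independent replicates. The ratio of control 2 to control 1, which involves no mutant, followed length as well, with medians of 1.48, 1.01 and 0.37 on the log2 scale from the shortest class to the longest and a rho of -0.59 in LECs. Over all genes these medians were 0.45, 0.32 and -0.041, with a rho of -0.14. Control 2 enters both this ratio and the fold change, so their trends with length are not independent. With each library's trend of level on exon length removed before the fit, the members' median in LECs was -0.23. With the length of the main transcript it was -0.19, against -0.37 without such a step.

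In Ptx3 LECs, again no member passed the edgeR test, against 5.03% of the 16756 tested genes, and the sum of control 1 rested on 12 cells. At an unadjusted p under 0.05, 2 members were higher and 14 lower (23.9% of all genes in either direction), and DESeq2 called 2 higher and 8 lower (17.5%). The median log2 fold change was -0.43 over the members, 26 of 94 above 0 (52% of all genes), and 0.06 over all genes. Role medians were -0.72 for complex IV, -0.59 for complex III, -0.47 for complex I accessory subunits, -0.18 for the core, -0.31 for complex V and 0.12 for complex II. The members' median turned on the controls: it was -0.75 without control 1 and 0.26 without control 2. Over all genes the median was then 0.21 and 0.69, so that the members lay below all genes in both fits.

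Ndufs8, a core subunit of complex I that carries iron-sulfur clusters, came closest to the threshold. Ndufs8 stood at 366 and 276 CPM in controls 1 and 2 and at 171, 160.0, 205, 166 and 214 CPM in mutants 1 to 5. All mutants lay below both controls, for a log2 fold change of -0.81 ± 0.20 (SE), edgeR adjusted p = 0.0509, with a range of 0.00332 to 1 over the alternatives and -0.56 for mutant 5 alone in its plate series. The accessory subunit Ndufb5 stood at 212 and 206 CPM in the controls, which differed little, and at 96.7, 116, 103, 112 and 159 CPM in the mutants (-0.83 ± 0.23, edgeR adjusted p = 0.0711); 12.3% of its exon bases are shared with other genes. Its fellow Ndufb4, which has near-identical copies elsewhere, had a log2 fold change of -1.02 ± 0.39 (edgeR adjusted p = 0.161), and the assembly factor Ndufaf2 stood at 43.6 and 40.0 against 11.8 to 23.8 CPM (-1.22 ± 0.42, edgeR adjusted p = 0.122).

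Atp5a1 was the main member in the other direction. It stood at 574 and 681 CPM in the Ptx3 LECs of the controls and at 909, 1003, 973, 887 and 802 CPM in those of the mutants, again without overlap (0.54 ± 0.14, edgeR adjusted p = 0.0652, 0.37 for mutant 5 alone). Sdhaf2, which inserts FAD into the flavoprotein of complex II, stood at 13.8 and 57.1 CPM in the controls and 76.1 to 96.8 CPM in the mutants, the controls lying far apart (1.29 ± 0.49, edgeR adjusted p = 0.155). Cox8a stood at 174 and 359 CPM against 115, 101, 123, 167 and 183 CPM and had a log2 fold change of -0.95 ± 0.32 (edgeR adjusted p = 0.119), its mutants reaching above control 1. Groups did not overlap for 4 members higher and 7 lower, again at or below the shares of all genes, which were 16.9% and 12.2%.

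BECs carried the same allele. No member passed the edgeR test in them (1.87% of the 19478 tested genes did), and at an unadjusted p under 0.05, 40 were lower in mutants and 5 higher, together 45 of 94, against 19.2% of all genes in either direction. DESeq2 called 19 members lower and 3 higher, against 11% of all genes. The median log2 fold change was -0.68 (0.011 over all genes), with 74 of 94 members below 0 and 20 above (50.5% of all genes). It was -0.98 for complex IV, where all 11 subunits lay below 0, -0.76 for complex I accessory subunits, -0.70 for complex III, -0.54 for complex V and -0.059 for the complex I core. Without control 1 the median was -1.01 and without control 2 -0.13, and mutant 5 alone in its plate series gave -0.18. Without mutant 5, 4 members were called lower (2.82% of all genes in either direction). For Uqcrb of complex III, the log2 fold change lay at -1.60 to -0.33 when 1 mouse at a time was left out.

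Among members that lay higher in mutant BECs, Sdha, the flavoprotein of complex II that oxidises succinate, stood at 252 and 274 CPM in the controls and 379, 413, 428, 379.7 and 326 CPM in the mutants, each above both controls (log2 fold change of 0.55 ± 0.15, edgeR adjusted p = 0.101). Both head subunits of complex V did the same without overlap: Atp5a1 stood at 608 and 466 against 869, 866, 816, 749.7 and 665 CPM (0.56 ± 0.16, edgeR adjusted p = 0.125), and Atp5b at 877 and 844 against 989 to 1272 CPM (0.41 ± 0.12, edgeR adjusted p = 0.138).

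Lower in every mutant was Atp5j, a stalk subunit whose promoter is shown above. It stood at 348 and 538 CPM in the controls and at 214, 243, 218, 187 and 293 CPM in the mutants (-0.94 ± 0.21, edgeR adjusted p = 0.0691), with 12.7% of its exon bases shared with other genes. The accessory subunits Ndufb4 and Ndufb2 stood at 32.8 and 61.1 and at 59.7 and 111 CPM in controls 1 and 2, and in the mutants at 16.3 to 24.6 and 30.9 to 47.6 CPM. Their log2 fold changes were -1.29 ± 0.30 (edgeR adjusted p = 0.0719) and -1.11 ± 0.27 (edgeR adjusted p = 0.0808). The assembly factor Ndufaf4 stood at 33.4 and 50.6 against 13.3 to 24.4 CPM (-1.16 ± 0.29, edgeR adjusted p = 0.0852), also with no overlap. Among subunits of complexes III and IV, the log2 fold changes were -1.13 ± 0.32 for Uqcrb (edgeR adjusted p = 0.117), which has near-identical copies, -1.29 ± 0.37 for Cox7a2 (edgeR adjusted p = 0.121) and -0.98 ± 0.29 for Cox6a1 (edgeR adjusted p = 0.135). In all, 6 members had every mutant above both controls and 10 below both, at or below the 13.6% and 11.4% of all genes.

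Whether the mutant effect differed between LECs and BECs was tested with an interaction term. No member passed (0.182% of all 22000 genes did). In all, 5 members had a higher and 4 a lower effect in LECs at an unadjusted p under 0.05 (11.3% of all genes), and DESeq2 called 2 and 2 (5.34%). The smallest adjusted p belonged to Ndufa8, with a difference of effects of -0.55 ± 0.14 on the log2 scale (edgeR adjusted p = 0.183), followed by Sdha (-0.56 ± 0.15, edgeR adjusted p = 0.208), Ndufaf4 (1.10 ± 0.31, edgeR adjusted p = 0.243) and Cox5a (0.69 ± 0.20, edgeR adjusted p = 0.25). Over the members the median difference, LEC effect minus BEC effect, was 0.21, with 75 of 94 above 0 (48.6% of all genes).

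LECs and BECs of the same mouse were compared next, and here members did pass the test. With the mouse as a block, 14 members were higher in LECs and 4 higher in BECs at an edgeR adjusted p under 0.05, 18 of 94, where 26.5% of all genes were called (14.3% higher and 12.2% lower). The members' share thus lay below the background, with more of them on the LEC side, and the differences were small: the median log2 fold change was 0.13 over the members and 0.025 over all genes. By role, called members higher in LECs were 3 of 7 core subunits of complex I, 2 of 4 of complex II and 5 of 17 of complex V, against 0 of 8 of complex III and 0 of 11 of complex IV, where Ndufa4 was called higher in BECs. All 7 core subunits of complex I and all 4 of complex II had a log2 fold change above 0, as did 51.7% of all genes. BECs had fewer cycling cells than LECs in each mouse, and without cycling cells 6 members were called higher in LECs (11.2% of all genes). Leaving out control 2 or mutant 1, 2, 3 or 5 left 6 to 8 members called higher (10.9 to 13.1% of all genes). Leaving out mutant 4 gave 7 called lower (10.6% of all genes).

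Ndufa8, an accessory subunit on the face of complex I towards the intermembrane space, showed the clearest difference, and on the BEC side. Its lowest, median and highest levels over the 7 mice were 118, 133 and 172 CPM in LECs and 202, 233 and 343 CPM in BECs. The means were 141 ± 21.1 and 244 ± 49.2 CPM (SD, n = 7), and LECs lay lower in 7 of 7 mice, from a log2 ratio of -0.29 to -1.06, for a fitted log2 fold change of -0.78 ± 0.10 (edgeR adjusted p = 0.000541, 3.55e-10 to 0.0029 over 16 alternatives, all called). It was thus 1.72-fold higher in BECs. Its ratio lay nearer to 0 in both controls than in any mutant, as the plot of ratios within a mouse shows, and the test of that difference is the interaction given above. Ndufa4, a complex IV subunit despite its name, was also higher in BECs (-0.37 ± 0.12, edgeR adjusted p = 0.0499), in 6 of 7 mice and called in 7 of 16 alternatives.

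On the LEC side, the called members included several complex V subunits. Atp5d, the delta subunit of its rotating stalk, had lowest, median and highest levels of 288, 319 and 384 CPM in LECs and 203, 255 and 292 CPM in BECs, higher in LECs in 7 of 7 mice (0.39 ± 0.061, edgeR adjusted p = 0.00145, called in 16 of 16 alternatives). Atp5b stood at 1059, 1346 and 1522 CPM against 845, 1135 and 1279.9 CPM (0.30 ± 0.056, edgeR adjusted p = 0.00375, 16 of 16 alternatives), also higher in 7 of 7 mice. Atp5o, the subunit that joins the head to the outer stalk, had a log2 fold change of 0.41 ± 0.096 (edgeR adjusted p = 0.0123), but 35.6% of its exon bases are shared with other genes and it has near-identical copies. Atp5a1 (0.19 ± 0.056, edgeR adjusted p = 0.0334) was called in 4 and Atp5f1 (0.22 ± 0.072, edgeR adjusted p = 0.0495), a subunit of the outer stalk, in 1 of 16 alternatives.

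In complex I, the core subunits Ndufv1 and Ndufv2, which take up electrons from NADH, were higher in LECs. Ndufv2 stood at 136, 172 and 189 CPM in LECs (lowest, median and highest) and 112, 124 and 178 CPM in BECs (0.37 ± 0.082, edgeR adjusted p = 0.00936), higher in 7 of 7 mice and called in 15 of 16 alternatives. Ndufv1 had a log2 fold change of 0.28 ± 0.081 (edgeR adjusted p = 0.0311). The accessory subunit Ndufb8 (0.35 ± 0.11, edgeR adjusted p = 0.0486) and the assembly factor Ndufaf7 (0.49 ± 0.12, edgeR adjusted p = 0.015) were also higher in LECs; Ndufaf7 holds sequence found in 119 other genes. Complex II was represented by its membrane anchors Sdhc (0.33 ± 0.081, edgeR adjusted p = 0.015) and Sdhd (0.36 ± 0.10, edgeR adjusted p = 0.0324), and by the assembly factor Sdhaf1 (0.47 ± 0.13, edgeR adjusted p = 0.0231), 69.6% of whose exon bases are shared with other genes.

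The restricted isoforms were mostly at low levels, and 2 of them were no longer called between the classes without cells that held markers of other types. Cox4i2, the oxygen-dependent form of subunit 4, and Ndufa4l2, a hypoxia-induced relative of Ndufa4, were higher in BECs (-2.51 ± 0.53, edgeR adjusted p = 0.00698, and -2.34 ± 0.54, edgeR adjusted p = 0.0119); both are known in pericytes. Lowest, median and highest levels of Cox4i2 were 0.0742, 0.811 and 2.42 CPM in LECs and 0.0479, 5.70 and 16.7 CPM in BECs, and those of Ndufa4l2 were 0.649, 1.79 and 14.2 and 0.887, 21.6 and 35.8 CPM. Without cells that held markers of other types, the log2 fold changes were -0.90 and -1.69, with edgeR adjusted p of 0.457 and 0.115 and a range over the alternatives of 4.87e-08 to 0.457 and 1.92e-06 to 0.115. The pericyte marker Rgs5 stood at 468 and 235 CPM in control BECs and a mean of 70.9 CPM in mutant BECs. Cox8b, a heart, muscle and brown fat isoform that is itself in the brown fat marker list, was called higher in LECs (fitted log2 fold change 3.91 ± 1.04, edgeR adjusted p = 0.0224) at means of 1.45 and 0.349 CPM.

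Between genotypes, Cox7a1, the heart and muscle form of subunit 7a, had 0 reads in the LECs of both controls and 147 reads in mutant LECs, at 0.0826 to 0.644 CPM per mouse. That is at least 11.6-fold higher than the level that 3 reads over the control group would give (edgeR adjusted p = 0.0818). Such a floor covers counting error only. Cox4i2 stood at 2.40 and 2.29 CPM in control LECs and 0.0729 to 1.07 CPM in mutant LECs (-2.19 ± 0.95, edgeR adjusted p = 0.247), and without cells holding markers of other types the fold change was 0.48, in the opposite direction.

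Within the LECs of a mouse, Ptx3 LECs were set against the other LECs. Of 93 tested members, 2 were called higher in Ptx3 LECs and none lower by edgeR, where 2.76% of all genes were called, 1.17% higher and 1.59% lower. At an unadjusted p under 0.05, 17 were higher and 1 lower (15.8% of all genes), and DESeq2 called 10 higher and 0 lower (11%). Uqcrc1, a core protein of complex III, had lowest, median and highest levels of 469, 530.1 and 641 CPM in Ptx3 LECs and 354, 439.5 and 526 CPM in other LECs. The means were 551 ± 62.8 and 434 ± 55.4 CPM (SD, n = 7), and it was higher in 7 of 7 mice (0.35 ± 0.058, edgeR adjusted p = 0.0157). Uqcrc1 was called in 9 of 17 alternatives. Below the threshold lay the accessory subunit Ndufc2 (0.41 ± 0.11, edgeR adjusted p = 0.0997) and the core subunit Ndufv1 (0.33 ± 0.092, edgeR adjusted p = 0.102).

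The median log2 fold change was 0.11 over the members and -0.081 over all genes, with 74 of 93 members above 0 (43% of all genes). In the complex I core it was 0.32 with 6 of 7 above 0, and in complex V 16 of 17 lay above 0. Ptx3 LECs of the mutants had 319904 to 560572 median reads per cell and 25.0 to 83.9% cycling cells, against 263182 to 450503 reads and 19.8 to 75.4% in other LECs. Without cycling cells 0 members were called (1.38% of all genes), with a median of 0.13. Leaving out mutant 1 or mutant 3 left 0 calls (1.12 and 1.1% of all genes), and leaving out mutant 2, 4 or 5 left 1 (1.05 to 1.45%). The mitochondrially encoded subunits lay on the other side: all 12 tested had a log2 fold change below 0, with a median of -0.19 and 1 called, mt-Cytb of complex III (-0.23, edgeR adjusted p = 0.0406).

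Genes around the respiratory chain were listed for context. Of 12 tested mitochondrially encoded subunits, mt-Co1, the catalytic subunit of complex IV, fell in mutant LECs (1653 and 1639 CPM in the controls and 1224, 1308, 1149, 1277 and 1197 CPM in mutants 1 to 5). Its log2 fold change was -0.42 (edgeR adjusted p = 0.049), and mt-Co1 and mt-Nd1 of complex I fell in Ptx3 LECs (-0.52 and -0.64, edgeR adjusted p = 0.0284 and 0.0185). None was called in BECs, where 5 were lower at an unadjusted p under 0.05. The list's medians were -0.32, -0.44 and -0.38 in LECs, Ptx3 LECs and BECs. With a plate series term 0 of these subunits were called in LECs or Ptx3 LECs (0.901 and 0.143% of all genes), at medians of -0.45 and -0.53. Series A holds no control, so with this term the difference rests on mutant 5 alone against the 2 controls. The lack of calls under it, here and below, thus cannot decide on plate series, whose part was not tested. The LEC median was -0.33 without control 1 and 0.13 without control 2, and the Ptx3 LEC median -0.47 and -0.023. Genes of the TCA cycle mostly lay on the other side of 0. Of its 16 genes, 14 were above 0 in LECs, 14 in Ptx3 LECs and 16 in BECs, with medians of 0.27, 0.48 and 0.26. Dlst, of the oxoglutarate dehydrogenase complex, rose in LECs, with 117 and 116 CPM in the controls and 226, 258, 273, 323 and 283 CPM in mutants 1 to 5 (1.23, edgeR adjusted p = 0.013), and in Ptx3 LECs (1.48, edgeR adjusted p = 0.00924). Citrate synthase, Cs, rose in LECs (0.69, edgeR adjusted p = 0.0419). No TCA cycle gene was called in BECs, and none was called for a difference in effect between LECs and BECs. With the plate series term 0 TCA cycle genes were called in LECs or Ptx3 LECs, at medians of 0.34 and 0.40. Their LEC median was 0.42 without control 1 and 0.27 without control 2.

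Among 8 pyruvate dehydrogenase kinase and hypoxia genes, Hif1a, the oxygen-regulated transcription factor, rose in all 3 classes, by a log2 fold change of 1.19 in LECs, 1.43 in Ptx3 LECs and 1.02 in BECs (edgeR adjusted p = 0.0263, 0.0225 and 0.0489). With a plate series term 1 gene of this list was called in LECs and 0 in Ptx3 LECs, at list medians of 0.82 and 1.32. The list's LEC median was 0.31 without control 1 and 0.85 without control 2. Of 10 regulators of mitochondrial genes, Ppargc1a was called lower in Ptx3 LECs, with 15.7 and 0.741 CPM in the controls and 0.120, 0, 0.131, 0.0694 and 0.0940 CPM in mutants 1 to 5, where control 1 alone held more than trace levels. Of 13 genes for expression and upkeep of mitochondrial DNA, none was called by edgeR in any mutant against control comparison. At an unadjusted p under 0.05 they were 1 higher and 3 lower in LECs (median -0.22) and 1 higher and 6 lower in Ptx3 LECs (median -0.93), where DESeq2 called 1 higher and 5 lower. Of 36 tested electron carriers and assembly genes outside the symbol rule, 1, Nubpl, was called, higher in Ptx3 LECs, with 0.531 and 0.912 CPM in the controls and 28.9, 28.8, 20.8, 18.7 and 21.2 CPM in mutants 1 to 5 (4.95, edgeR adjusted p = 0.00903). With the plate series term 0 of these 36 genes were called in Ptx3 LECs. Of 78 mitochondrial ribosomal protein genes, none was called in LECs or BECs, and 1 was higher and 1 lower in Ptx3 LECs (5.03% of all genes in either direction). Of them 15 were higher in LECs than in BECs, where 14.3% of all genes were. Of 84 tested cytosolic ribosomal protein genes, 9 were lower in mutant LECs and 17 in mutant Ptx3 LECs (0.805 and 2.21% of all genes), with medians of -0.80 and -0.85. With the plate series term 0 were called in either class, at medians of -0.55 and -0.61. Their LEC median was -1.12 without control 1 and -0.44 without control 2. In BECs 0 of 85 cytosolic ones were called, with 61 lower at an unadjusted p under 0.05 (19.2% of all genes in either direction). Between LECs and BECs, 7 of 16 TCA cycle genes were higher in LECs (14.3% of all genes), all 16 with a log2 fold change above 0 (51.7% of all genes).

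Single cells gave a view of the set that does not rest on the most abundant members. With each cell thinned to 50000 reads, the median number of members with at least 1 read was 52 and 59 per LEC in controls 1 and 2 and 60.5, 58, 62, 64 and 66 in mutants 1 to 5. In BECs, it was 48 and 51 in the controls and 55, 60, 56, 52 and 54 in the mutants, and in Ptx3 LECs 55 and 63 against 68, 65, 67.5, 69 and 71.5. In BECs and Ptx3 LECs every mutant lay above both controls, and in LECs mutant 2 lay between them, while the share of reads placed control 2 above all mutants in each class. Without thinning, the median member had a read in 57.4 and 70.3% of control LECs and in 69.5 to 78.2% of mutant LECs. No cell held fewer than 50000 reads. These values are a description, with no test. The matching count over all genes is not given here, so they do not show a property of these members apart from other genes. Control cells also more often held markers of other cell types, as given above, and the part of this was not tested.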

How the data were processed

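Smart-Seq2 libraries of sorted single cells from 2 control and 5 mutant mice were used. Per the labels and the study's methods, the authors aligned the reads to GRCm38 with TopHat2 2.1.1, removed duplicate reads with SAMtools 0.1.18 and deposited raw counts per Ensembl gene and cell from featureCounts; the annotation release and the strand setting are not given in the sources used here. The libraries hold no molecular identifiers, and duplicate removal by position limits the reads that a short, abundant transcript can keep; its part in these values was not tested.

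Kept cells had a read in at least 200 genes, at least 50000 reads in all and a mitochondrial share of at most 10%. Spike-in reads (0.422% of reads) were left out, and no doublet caller was run on these single-cell sorts. Symbols came from GENCODE vM21 and covered 98.9% of genes. Raw counts were summed per mouse and class, plates of 1 mouse together. Genes were filtered with filterByExpr, scaled by TMM and tested with edgeR 4.0.16 (quasi-likelihood, Benjamini-Hochberg over all genes), in 6 comparisons, the within-mouse ones with the mouse as a block. Levels are TMM-scaled CPM of each fit, and ± on a log2 fold change is its SE. DESeq2 1.42.0 and the alternatives named in the closing section were run on the same sums, and scripts were tested on simulated data. The mouse was the replicate; replicate numbers are shared between groups but belong to different mice. Near-identical transcripts elsewhere (95% identity over 100 bases, blastn 2.17.0) exist for 27 members, and 12 share over 10% of their exon bases with another gene.

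Named genes were members of a fixed list covering every role plus, in each comparison, called members with the largest log2 fold changes or, where fewer than 4 were called, the 4 with the smallest p. Ndufa6, Ndufa9, Uqcrh, Ndufaf5, Ndufaf6, Sdhaf2, Ndufaf2, Ndufb8 and Atp5f1, and Ndufb4 and Ndufaf4 in some comparisons, were named after their values were seen, as were the members of other lists. The result of 1 member is not reported here. The members and lists were chosen with earlier results of these data known.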

Additional observations from a re-analysis of the deposited data

Results flagged for a closer look

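A mutant mouse stood apart from the other 4 in 6 of 94 groups of mutant values examined (a gap to the nearest mouse that fills most of the group's range, which chance alone gives in about 1 of 20 groups). Mutant 5, the only mutant of plate series B, was the mouse in 5 of them. Its Ndufa4l2 stood at 14.5 CPM in LECs (0.638 to 1.81 CPM in the other mutants) and 19.5 CPM in Ptx3 LECs (0 to 1.84 CPM). Its Cox4i2 stood at 1.19 CPM in Ptx3 LECs (0 to 0.307 CPM). Its Cox5a, a complex IV subunit, stood at 220.1 CPM in Ptx3 LECs (151 to 169 CPM) and 207 CPM in BECs (108 to 129 CPM). In mutant 3, Sdha stood at 487 CPM in LECs against 363 to 393 CPM in the other mutants. The part of plate series in these values was not tested, since only mutant 5 among the mutants belongs to series B.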

How the results depend on the processing

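The counts of called members depended on the tool. DESeq2 called 4 members higher and 6 lower in mutant LECs, 2 and 8 in Ptx3 LECs, 3 and 19 in BECs, and 2 and 2 between the effects in LECs and BECs, where edgeR called 0; between Ptx3 and other LECs it called 10 higher, with a median of 0.15. The median log2 fold changes in LECs, Ptx3 LECs and BECs were -0.10, -0.094 and -0.20 with a plate series term and -0.095, -0.083 and -0.18 within series B.

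With the exon length trend removed, 10 members were lower in Ptx3 LECs, with 6.86% of all genes called in either direction and 4.51% lower. Their median was -0.67, and that of all genes fell to -0.25 from 0.06. In this setting 0 members were higher between Ptx3 and other LECs (median 0.23). With the length of the main transcript, chosen after seeing the data, these were 8 (6.51% of all genes) and 0 (median 0.20), and 1 was lower in BECs (1.69% of all genes). Without cells holding other types' markers, 1 member was higher and 1 lower in Ptx3 LECs (5.3% of all genes in either direction), and 1 and 3 in BECs (3.89%). In the same setting 5 and 2 were called in LECs against BECs (19.9% of all genes) and 1 higher in Ptx3 LECs against others (1.3%), and Cox4i2 in mutant LECs reversed to 0.48. Without cycling cells, 6 members were higher in LECs than in BECs (22.5% of all genes in either direction) and 0 in Ptx3 LECs than in others. With cells thinned to 50000 reads, 1 was lower in mutant Ptx3 LECs (6.57% of all genes), 5 higher in LECs than in BECs (29.8%) and 1 higher in Ptx3 LECs than in others (4.8%, median 0.0498). A Ptx3 limit of 200 CPM gave 1 lower in mutants (4.81% of all genes) and 1 higher than in others (2.15%). DESeq2's size factors in edgeR gave 1 lower in mutant Ptx3 LECs (5.33% of all genes in either direction). For Ptx3 against other LECs they gave a median of 0.15. Except where a value without certain cells is the alternative itself, the cause of these shifts was not tested.

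Leaving out 1 mouse at a time, the median lay at -0.76 to 0.25 in LECs, -0.75 to 0.26 in Ptx3 LECs and -1.01 to -0.13 in BECs. It lay at 0.12 to 0.33 for the difference of effects, 0.027 to 0.15 for LECs against BECs and 0.11 to 0.13 for Ptx3 against other LECs. Less the median of all genes, it lay at -0.88 to 0.098 in LECs, -0.96 to -0.40 in Ptx3 LECs and -1.19 to -0.27 in BECs. Members called higher numbered 0 to 1 in LECs, 0 to 12 in Ptx3 LECs, 0 to 1 in BECs, 6 to 12 in LECs against BECs and 0 to 2 in Ptx3 against other LECs, and members called lower 0 to 11 in Ptx3 LECs, 0 to 4 in BECs and 3 to 7 in LECs against BECs. The share of reads differed between groups by -0.647 to 0.119 percentage points in LECs, -0.594 to 0.210 in Ptx3 LECs and -0.694 to -0.0637 in BECs. With a lone control left, that library is assumed to vary like the mutants.

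With a replicate block, 0 members were called in the 3 mutant against control comparisons, and the medians were -0.52, -0.45 and -0.60. Replicate numbers belong to different mice, deviations of the same-numbered mice correlated at -0.047 and 0.027 (numbers 1 and 2), and the samples share only a number. The values for single genes under the alternatives were counted together with the distance of the members' median from that of all genes. Of these, 1344 stayed the same: genes kept direction and side of the threshold, and distances stayed within the SD between mice. For genes, 63 came to pass the threshold, 111 lost it and 1 reversed, and 15 distances moved beyond that SD. Among member medians and shares of reads, 22 moved beyond their SD and 2 shares reversed. The spread between 2 control mice that differ in genotype and 4-OHT treatment limits the precision, and the shallowest sum, Ptx3 LECs of control 1, holds 4098711 reads.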
